A study of Mus musculus with 20 samples.

Results

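The insulin-like growth factor (IGF) axis was followed in ventricle RNA of ovariectomized mice through 8 genes, of 18193 genes on the array with a probe set that carried their symbol alone. They were Igf1 and Igf2, which encode the ligands, Igf1r, which encodes their main signalling receptor, and Igfbp3, Igfbp4, Igfbp5, Igfbp6 and Igfbp7, which encode secreted binding proteins. The genes were chosen by name, with earlier results of these data known, so shares of the 8 genes are description only. They carried 25 probe sets, and each gene was represented by its probe set of highest mean over all 20 arrays. All 8 lay above the expression filter, as did 12082 genes in all.

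IGF1 and IGF2 are small secreted growth factors that act mainly through a receptor tyrosine kinase, IGF1R, and from there on the PI3K-AKT and MAP kinase cascades. Most of the ligand outside cells is held by binding proteins, which lengthen its life, limit or direct its access to the receptor, and are themselves cut by secreted proteases. IGFBP7 binds IGF weakly and is known as a vascular and matrix-associated protein. In the heart, IGF1 is known as a growth and survival signal for cardiomyocytes that is made largely by non-myocytes, and estrogens are known to change Igf1 and IGF binding protein transcripts in organs such as the uterus and liver.

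The animals were female C57BL/6 mice, ovariectomized at 8 weeks of age, which removes the main source of estrogen, and then treated for 4 weeks through an implanted minipump with an estrogen held in cyclodextrin or with placebo. There were 4 groups of 5 samples: placebo, estradiol (the natural hormone, which acts on both estrogen receptors α and β), 16α-LE2 (an estrogen receptor α agonist per the labels), and a group titled beta that is labelled as receiving control solution. The title and the treatment label of these last samples do not match, so they form a beta-titled group of their own here. Every group, placebo included, had lost its ovaries. The labels give the time but no dose, so it is not known whether the agonists were matched in dose.

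Every value is the log2 of a probe set's signal on 1 array, a scale read from the range of the values (5.07 to 15.31). Array means were nearly equal, from 7.36 to 7.37. Spearman correlations between arrays were 0.978 to 0.992, except those of estradiol sample 33, which were 0.922 to 0.941. Ventricular cardiomyocyte markers were high in all groups (mean of 8 markers, 13.18 to 13.56 per array). Atrial markers were present at levels that differed between arrays (mean of 5 markers, 8.25 to 10.87). Adjusted p-values are limma's, with Benjamini-Hochberg adjustment over the 12082 genes, and a gene was called at an adjusted p below 0.05. The labels do not say that the samples came from separate animals, so the p-values measure the spread between these samples, and the number of arrays limits the precision of the differences.

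None of the 8 genes passed the threshold in any of the 6 comparisons between groups. The differences nearest to it lay on the side of 16α-LE2: against placebo, Igf1 and Igfbp7 were lower and Igfbp3 was higher, by 1.39-fold to 1.45-fold, while Igf2, Igf1r, Igfbp4, Igfbp5 and Igfbp6 differed by less than the spread between samples. With 16α-LE2 against placebo, 0.223% of all tested genes were called. At an unadjusted p below 0.05 there were 3 of the 8 genes against 9.01% of all tested genes. Of the 8 differences, 7 were negative, against 59.7% of all genes, though those of Igf1r, Igfbp4 and Igfbp6 lay near 0 and were positive after quantile normalization (0.04, 0.04 and 0.06). Their median was −0.08 against −0.03 over all genes.

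The start regions of these 3 genes are shown because the groups differ in a hormone whose receptors bind DNA. Each line gives the 250 bases before the transcription start from RefSeq (GRCm38.p6), 5′ to 3′ on the strand of the gene, and capitals mark the estrogen response element half-site AGGTCA, searched on both strands (TGACCT on the other). The Igf1 window is chr10:87860861-87861110, plus strand, the Igfbp7 window is chr5:77408046-77408295, minus strand, and the Igfbp3 window is chr11:7213924-7214173, minus strand.
Igf1: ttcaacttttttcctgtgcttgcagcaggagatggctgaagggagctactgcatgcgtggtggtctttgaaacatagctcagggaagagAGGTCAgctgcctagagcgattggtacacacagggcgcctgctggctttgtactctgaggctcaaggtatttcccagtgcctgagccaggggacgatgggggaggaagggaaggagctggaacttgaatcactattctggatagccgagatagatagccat
Igfbp7: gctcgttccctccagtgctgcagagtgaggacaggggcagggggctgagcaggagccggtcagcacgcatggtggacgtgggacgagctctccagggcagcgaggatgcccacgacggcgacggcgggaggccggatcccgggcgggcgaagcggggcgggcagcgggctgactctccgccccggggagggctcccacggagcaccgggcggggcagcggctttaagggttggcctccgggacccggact
Igfbp3: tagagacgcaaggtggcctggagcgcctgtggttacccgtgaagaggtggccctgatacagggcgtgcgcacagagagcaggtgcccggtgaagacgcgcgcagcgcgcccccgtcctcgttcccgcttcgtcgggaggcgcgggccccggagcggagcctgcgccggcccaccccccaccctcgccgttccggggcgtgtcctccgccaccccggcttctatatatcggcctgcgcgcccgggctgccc
The Igf1 window held 1 half-site, beginning 161 bases before the start, and those of Igfbp7 and Igfbp3 held none. Of 32851 windows of the same length, 14% held at least 1. The full estrogen response element palindrome, an inverted repeat of the half-site, was found in none of these 3 windows and in 0.0639% of all windows. Among the other members, the Igf1r window and 1 of 4 Igf2 windows held a half-site. A match describes letters only, and binding was not measured here.

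**Figure D1:**
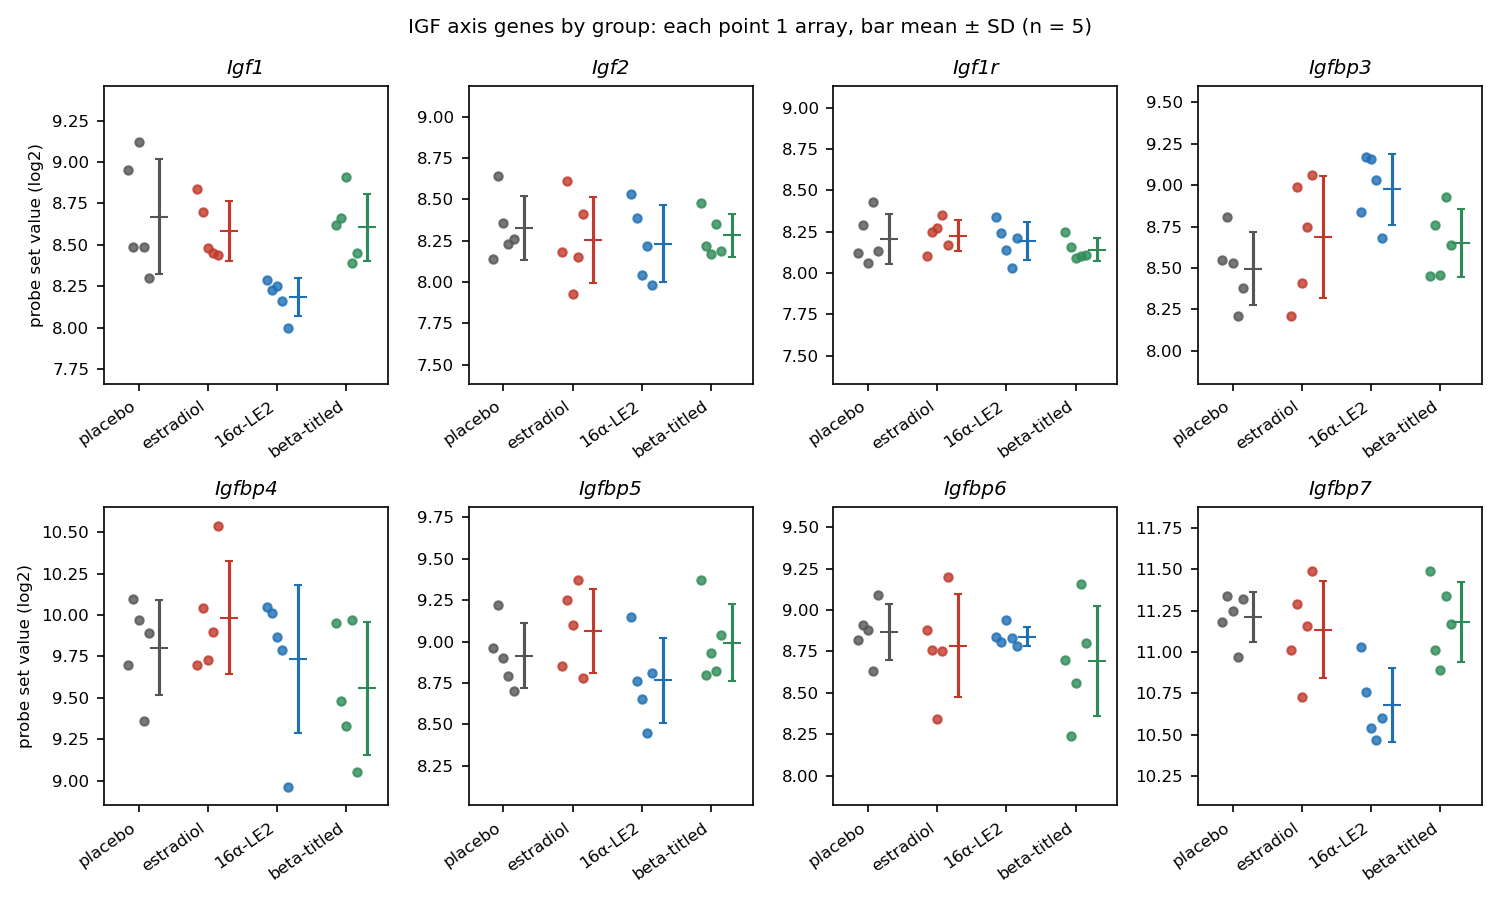
Probe set value (log2) of each of the 8 genes in the placebo, estradiol, 16α-LE2 and beta-titled groups; each point is 1 array and the bar is the mean ± SD (n = 5). All panels span the same number of log2 units, and the 16α-LE2 points of Igf1 (8.00 to 8.29) lie below those of the other groups.

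The ligands were taken first. Igf1 was 8.49 in placebo samples 32 and 34, 8.30 in sample 36, 8.95 in sample 31 and 9.12 in sample 33. With 16α-LE2 it was 8.29, 8.23, 8.25, 8.16 and 8.00 in samples 29, 30, 32, 33 and 34. All 5 treated samples lay below all 5 placebo samples, although the nearest pair (8.29 and 8.30) almost touched, and the placebo group was the most spread of the 4. The means were 8.18 ± 0.12 and 8.67 ± 0.35 (SD, n = 5 each), a difference of −0.49 ± 0.13 (SE; 95% interval −0.76 to −0.21; limma adjusted p = 0.15), or 1.40-fold lower. Igf1 was the 1 member whose groups did not overlap here, as were 3.28% of all tested genes. Without placebo sample 33 the difference was −0.37 (limma adjusted p = 0.386), and without sample 36 it was −0.58 (limma adjusted p = 0.0593).

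The Igf1 values of the other groups were close to placebo. With estradiol they were 8.84, 8.70, 8.48, 8.45 and 8.44 in samples 29, 30, 33, 34 and 35, and in the beta-titled group they were 8.62, 8.66, 8.91, 8.39 and 8.45 in samples 31, 32, 33, 35 and 36. Both ranges lay inside that of placebo. The order of the means was 16α-LE2 (8.18), estradiol (8.58), beta-titled (8.61) and placebo (8.67), and the last 3 did not differ beyond their spread.

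Igf2, the fetal growth factor transcribed from an imprinted locus, was 8.14 to 8.64 in placebo (median 8.26), 7.93 to 8.61 with estradiol (8.18), 7.98 to 8.53 with 16α-LE2 (8.22) and 8.17 to 8.48 in the beta-titled group (8.22). The 4 ranges overlapped almost fully. With 16α-LE2 its difference from placebo was −0.09 with a 95% interval from −0.35 to 0.16. The interval leaves room for a lower or a higher level.

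Igf1r showed the least spread of the 8 genes. It was 8.06 to 8.43 in placebo (median 8.13), 8.10 to 8.35 with estradiol (8.25), 8.03 to 8.34 with 16α-LE2 (8.21) and 8.09 to 8.25 in the beta-titled group (8.11). Its differences from placebo were −0.01 (95% interval −0.18 to 0.15) with 16α-LE2, 0.02 (−0.15 to 0.18) with estradiol and −0.07 (−0.23 to 0.10) in the beta-titled group. Its intervals were the narrowest of the 8 genes, and all 3 held 0.

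Among the binding proteins, Igfbp7 stood lowest with 16α-LE2. It was 11.18, 11.34, 11.25, 10.97 and 11.32 in placebo samples 31, 32, 33, 34 and 36, and 11.03, 10.76, 10.54, 10.47 and 10.60 in 16α-LE2 samples 29, 30, 32, 33 and 34. Of the treated samples, 4 lay below every placebo sample, and sample 29 lay above the lowest of them. The means were 10.68 ± 0.22 and 11.21 ± 0.15 (SD, n = 5 each), a difference of −0.53 ± 0.14 (SE; 95% interval −0.82 to −0.24; limma adjusted p = 0.134), or 1.45-fold lower. Without estradiol sample 33, which is not in this comparison and acts only through the shared estimate of spread, the adjusted p was 0.0553. Igfbp7 was 10.73 to 11.49 with estradiol (median 11.16) and 10.89 to 11.49 in the beta-titled group (11.17), both around the placebo range, so these 3 groups did not differ beyond their spread.

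Igfbp3, which encodes the main carrier of IGF1 in blood plasma, stood highest with 16α-LE2. It was 8.55, 8.81, 8.53, 8.21 and 8.38 in placebo samples 31, 32, 33, 34 and 36, and 8.84, 9.17, 9.16, 9.03 and 8.68 in 16α-LE2 samples 29, 30, 32, 33 and 34. All but sample 34 of the treated samples lay above every placebo sample. The means were 8.98 ± 0.21 and 8.50 ± 0.22 (SD, n = 5 each), a difference of 0.48 ± 0.15 (SE; 95% interval 0.17 to 0.79; limma adjusted p = 0.233), or 1.39-fold higher. The other groups lay between, with means of 8.68 for estradiol, whose samples were the most spread (8.21 to 9.06), and 8.65 for the beta-titled group (8.45 to 8.93). Neighbours in the order placebo, beta-titled, estradiol and 16α-LE2 overlapped in every case.

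Igfbp4, whose product restrains IGF action until it is cut by pappalysin, was 9.36 to 10.10 in placebo (median 9.89), 9.70 to 10.54 with estradiol (9.90), 8.96 to 10.05 with 16α-LE2 (9.87) and 9.05 to 9.97 in the beta-titled group (9.48). It varied most between samples of a group, and 16α-LE2 sample 34 (8.96) stood apart from the other 4 (9.79 to 10.05). Its difference from placebo with 16α-LE2 was −0.07 (95% interval −0.50 to 0.36), and 0.13 without sample 34. The largest Igfbp4 difference between groups was that of estradiol above the beta-titled group, 0.43 ± 0.21 (SE; limma adjusted p = 0.925).

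Igfbp5, which encodes a binding protein held in the matrix and made by mesenchymal cells, was 8.70 to 9.22 in placebo (median 8.90), 8.78 to 9.37 with estradiol (9.10), 8.45 to 9.15 with 16α-LE2 (8.76) and 8.80 to 9.37 in the beta-titled group (8.93). Of the 16α-LE2 samples of Igfbp5, 3 of 5 lay below every estradiol sample. Igfbp6, a binding protein with a preference for IGF2, was 8.63 to 9.09 in placebo (median 8.88), 8.34 to 9.20 with estradiol (8.76), 8.78 to 8.94 with 16α-LE2 (8.83) and 8.24 to 9.16 in the beta-titled group (8.70). The 16α-LE2 samples of Igfbp6 were close together (SD 0.06 against 0.17 to 0.33 in the other groups), and that difference in spread was not tested.

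**Figure D2:**
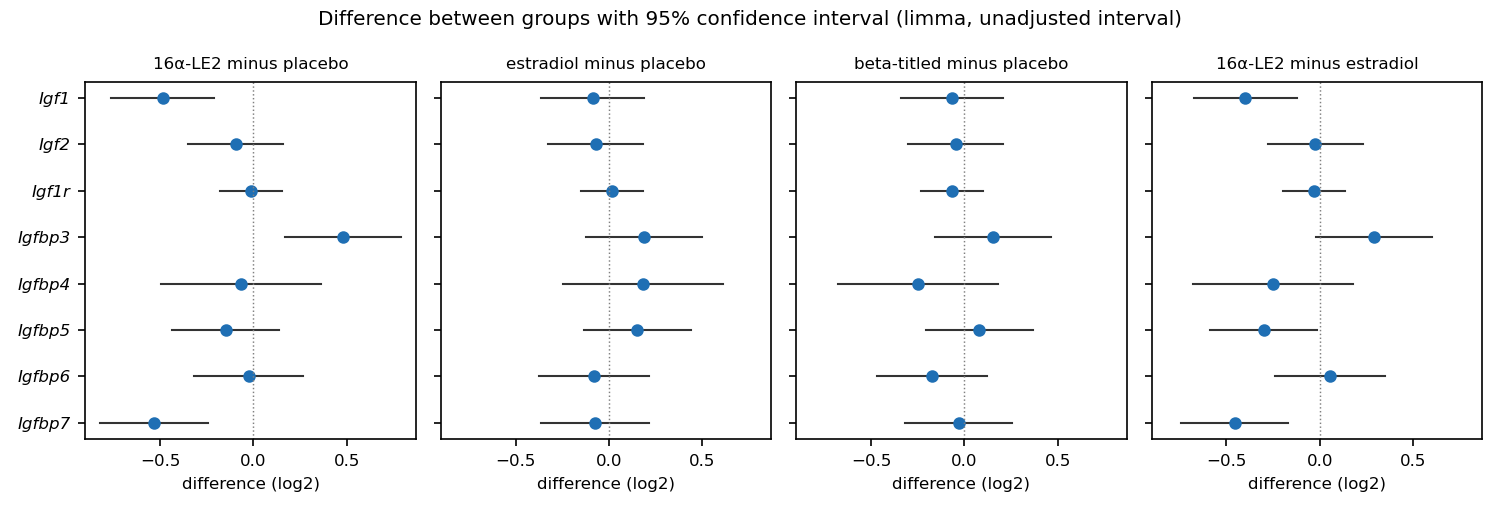
Difference between groups (log2) for each gene with its 95% confidence interval from limma, in 4 of the 6 comparisons. With 16α-LE2 minus placebo the intervals of Igf1, Igfbp7 and Igfbp3 lie away from 0, while with estradiol minus placebo and beta-titled minus placebo every interval crosses 0; none of the differences passed after adjustment.

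The compounds were compared directly with each other. Relative to estradiol, Igf1 was lower with 16α-LE2 (difference −0.40 ± 0.13 SE, 95% interval −0.67 to −0.12; limma adjusted p = 0.699), with no overlap between the groups. That was 1 of the 8 genes, against 0.753% of all tested genes. Igfbp7 was lower too (−0.46 ± 0.14 SE, 95% interval −0.74 to −0.17; limma adjusted p = 0.553), with 3 of 5 samples below every estradiol sample. That holds for its probe set of highest mean. The second by signal was higher with 16α-LE2 than with estradiol (0.16 ± 0.07 SE), and a dim one below the filter was lower (−0.14 ± 0.08 SE). Igfbp5 was the third gene at an unadjusted p below 0.05 (−0.30 ± 0.14 SE, 95% interval −0.59 to −0.01; limma adjusted p = 0.875), and 5.19% of all tested genes reached such a p. The second probe set of Igfbp5 had the opposite sign in this comparison (0.19 ± 0.11 SE). Over all tested genes 0.0166% were called in this comparison.

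For the other genes the difference between 16α-LE2 and estradiol had an interval that crossed 0, which leaves room for either sign and does not show that the compounds acted alike. It was 0.29 for Igfbp3 (−0.02 to 0.60), −0.25 for Igfbp4 (−0.68 to 0.18), −0.02 for Igf2 (−0.28 to 0.23), −0.03 for Igf1r (−0.20 to 0.13) and 0.05 for Igfbp6 (−0.24 to 0.35). Estradiol itself differed from placebo by −0.09 for Igf1 (95% interval −0.36 to 0.19), −0.07 for Igfbp7 (−0.36 to 0.21) and 0.19 for Igfbp3 (−0.12 to 0.50). No member had an unadjusted p below 0.05 with estradiol against placebo, where 9.63% of all tested genes did and 0.00% were called. The comparisons with placebo share the placebo samples, so their values are given side by side only.

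The comparison with the beta-titled group uses the same 5 arrays of 16α-LE2 as that with placebo, so its values are given beside the others and not as a repeat. Igf1, Igfbp7 and Igfbp3 had an unadjusted p below 0.05, where 5.60% of all tested genes reached such a p and 0.174% were called. Igf1 differed by −0.42 ± 0.13 (SE; limma adjusted p = 0.346) with no overlap, as for 2.28% of all tested genes, Igfbp7 by −0.50 ± 0.14 (SE; limma adjusted p = 0.225), and Igfbp3 by 0.33 ± 0.15 (SE; limma adjusted p = 0.845). The beta-titled group differed from placebo by −0.25 (Igfbp4) to 0.15 (Igfbp3) over the 8 genes, with limma adjusted p from 0.75 to 0.963. Against estradiol none of the 8 genes passed either (limma adjusted p from 0.925 to 0.986), and the Igfbp4 difference given above was the largest of them. In both of these comparisons 0.00% of genes were called, and 5.70% and 3.83% had an unadjusted p below 0.05.

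The call depended on how arrays were weighted. With weights that limma estimates from each array's overall scatter, Igfbp7 (−0.59, adjusted p = 0.00288), Igf1 (−0.47, adjusted p = 0.0194) and Igfbp3 (0.47, adjusted p = 0.0421) passed for 16α-LE2 against placebo, and 357 genes passed in all in place of 27. Igfbp7 then also passed against estradiol (−0.62) and against the beta-titled group (−0.56). The weights ran from 0.079 for estradiol sample 33 to 2.59 for 16α-LE2 sample 30. In the other 29 alternatives run for each of these 3 genes in this comparison, the direction was kept and the threshold was not passed. Many of these change only the adjusted p and leave the difference as it was, so its direction could not turn there.

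**Figure D3:**
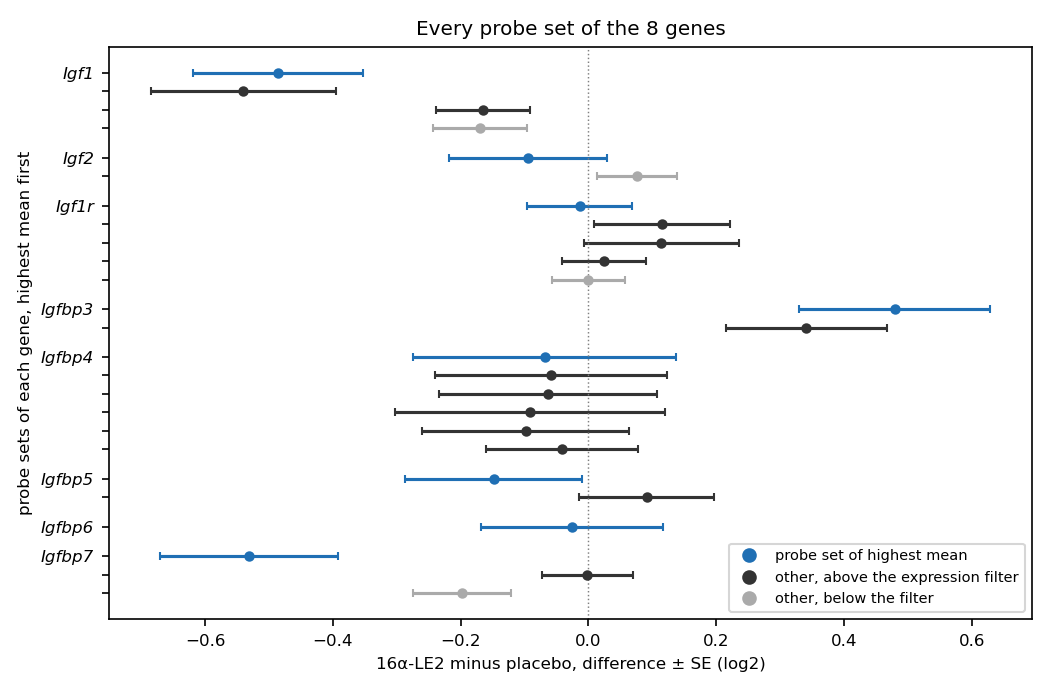
Difference of 16α-LE2 minus placebo (log2, ± SE) for each of the 25 probe sets of the 8 genes, ordered within a gene by mean signal. All 4 probe sets of Igf1 lie below 0 and both of Igfbp3 above it, while the second probe set of Igfbp7 lies at 0.

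The other probe sets of a gene give a further reading of the same RNA. For Igf1, all 4 were lower with 16α-LE2 than with placebo, at −0.49 ± 0.13 and −0.54 ± 0.14 (SE) for the brighter pair, and at −0.16 ± 0.07 and −0.17 ± 0.07 for the dimmer pair. The dimmest of the 4, at −0.17, lay below the expression filter. The brighter pair deviated together over the 20 arrays (r = 0.95 after subtracting group means), and the dimmer ones followed less closely (r = 0.34 and 0.49). All 4 were also lower against estradiol and against the beta-titled group. For Igfbp3 both probe sets were higher, by 0.48 ± 0.15 and 0.34 ± 0.13 (SE), and deviated together (r = 0.90).

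For Igfbp7 the probe sets did not agree. The one used lay at −0.53 ± 0.14 (SE) and a dim one below the filter at −0.20 ± 0.08, whereas the second by signal lay at −0.0015 ± 0.071 and had an r of 0.31 with the one used. With the mean of its probe sets, Igfbp7 differed by −0.24 between 16α-LE2 and placebo (limma adjusted p = 0.289). The 6 probe sets of Igfbp4 all lay between −0.10 and −0.04, each within its SE of 0. Of the 5 probe sets of Igf1r, 2 were below and 3 above placebo (−0.01 to 0.12). The second probe set of Igfbp5 had the opposite sign (0.09 ± 0.11 SE) and did not follow the first (r = 0.07). For Igf2 the second probe set, below the filter, also had the opposite sign (0.08 ± 0.06 SE) and did not follow the first (r = −0.38).

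The members did not deviate as a block within groups. After each group mean was subtracted, the 28 pairs of genes had Pearson's r from −0.35 to 0.77 over the 20 arrays, which share RNA, labelling and array effects. Igf2 and Igfbp7 were the closest pair (r = 0.77, Spearman's rho = 0.75), and r was 0.81 without the 2 arrays farthest from the median of Igf2. These values describe the probe sets used, which the second probe sets of Igf2 and Igfbp7 followed with r of only −0.38 and 0.31. Among all other tested genes, 99.5% followed Igf2 less closely than Igfbp7 did. Igf2 with Igfbp4 (r = 0.69, rho = 0.73), Igfbp4 with Igfbp7 (r = 0.68, rho = 0.76) and Igfbp6 with Igfbp7 (r = 0.65, rho = 0.62) came next. Igf1 stood apart from these, with r between −0.35 and 0.06 to each of the 7 other members, Igfbp7 included (r = −0.13). Igf1 and Igfbp7, both lowest in the 16α-LE2 group, did not follow each other from sample to sample within groups.

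**Figure D4:**
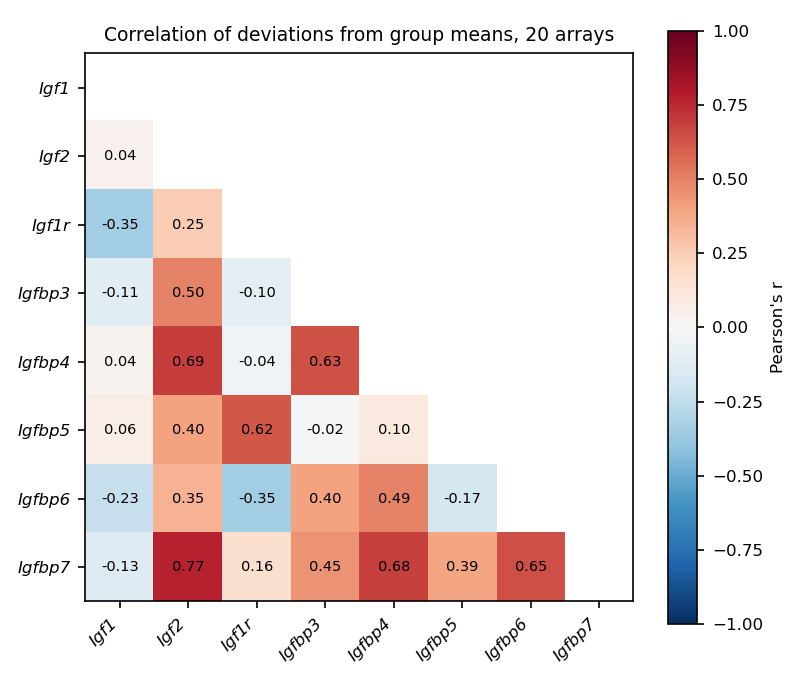
Pearson's r between each pair of the 8 genes over 20 arrays, on log2 values from which the mean of each group was subtracted; colour and number give r. Igf2, Igfbp4 and Igfbp7 correlate with one another (0.68 to 0.77), and the Igf1 column holds no value above 0.06.

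By the same measure, the genes that followed Igf1 most closely were Prss23, a secreted serine protease (r = 0.92), Mysm1 (0.90) and Ttc39b (0.90). On values with the group means left in, Enpep, an aminopeptidase of the angiotensin system (0.92), Prss23 (0.91) and Septin4 (0.91) led. For Igfbp7 these were Camk2n1, Spry1, an inhibitor of receptor tyrosine kinase signalling, and Cyth1 (0.90, 0.86 and 0.86 on deviations), and Fxyd6, Serpinf1 and Col1a2, a chain of type I collagen (0.88, 0.84 and 0.84 with group means left in). For Igfbp3 they were Pim3 (0.82), Kcng2 (0.80) and Khdrbs1 (0.75), and for Igfbp4 Cuedc2 (0.86), Plvap, an endothelial diaphragm protein (0.86), and AI837181 (0.82), all on deviations. Each is the top of 12081 genes over 20 arrays, so a high value is given by the choice alone.

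Markers of other cell types also differed between these groups. The mean level of the 10 fibroblast markers was 9.89 to 10.04 with 16α-LE2, 10.04 to 10.56 with placebo, 10.19 to 10.36 with estradiol and 10.25 to 10.39 in the beta-titled group. In 16α-LE2 against placebo, 9 of the 10 were lower, and 6 had an unadjusted p below 0.05, all of them lower. Col3a1, a fibrillar collagen, was called (−1.48, limma adjusted p = 0.0011). Tcf21, a fibroblast transcription factor, lay at −0.0015 and Gsn, the 1 that was higher, at 0.08. Of all tested genes, 59.7% were lower, 9.01% had such a p and 0.223% were called. The counts of every marker list against placebo are to be read beside these shares. The 10 endothelial markers were 9.01 to 9.48 with 16α-LE2 and 9.28 to 9.58 with placebo, with 8 lower, 2 higher and 0 called by limma. At an unadjusted p below 0.05 there were 7 lower and 2 higher. The smallest p was that of Tek, an angiopoietin receptor (−0.57), while Vwf, the von Willebrand factor gene, was higher (0.66) and so was Flt1, a VEGF receptor gene (0.31), so the list did not go one way. The 9 smooth muscle and pericyte markers were 9.49 to 9.75 with 16α-LE2 and 9.66 to 9.80 with placebo, with 6 lower, 3 higher and 0 called by limma. The 4 at an unadjusted p below 0.05 were all lower: Rgs5 (−0.33), Pdgfrb (−0.34), Kcnj8 (−0.38) and Acta2 (−0.38). The 3 that were higher were Myh11 (0.30), Tagln (0.10) and Cnn1 (0.06), so this list did not go one way either. The 5 red blood cell markers were 8.29 to 9.29 with 16α-LE2 and 7.94 to 8.35 with placebo, all higher, with Slc4a1 called (0.57). The 10 macrophage markers were 9.32 to 9.47 with 16α-LE2 and 8.82 to 9.90 with placebo, which overlapped. Against estradiol, all 10 fibroblast markers were lower with 16α-LE2, as were 56.3% of all tested genes. Of these markers, 0 were called by limma and 5 had an unadjusted p below 0.05, against 0.0166% and 5.19% of all tested genes.

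Within groups, Igf1 followed the fibroblast marker mean with r = 0.60 (rho = 0.48, and r = 0.41 without the 2 arrays farthest from the median of Igf1), and Igfbp7 followed it with r = 0.48 (rho = 0.58). Igfbp7 followed the smooth muscle and pericyte mean with r = 0.53 (rho = 0.48), and Igf1 with r = 0.25 (rho = 0.30). The atrial mean was followed more closely by Igfbp7 (r = 0.65, rho = 0.61), and the macrophage mean about as closely as the fibroblast mean (r = 0.48, rho = 0.51). Igfbp3, which was higher with 16α-LE2, had an r of 0.39 to the fibroblast mean and 0.25 to the smooth muscle and pericyte mean. The part of these markers in the Igf1 and Igfbp7 differences was not tested. In whole ventricle tissue, fewer cells of a type and less RNA per cell cannot be told apart.

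**Figure D5:**
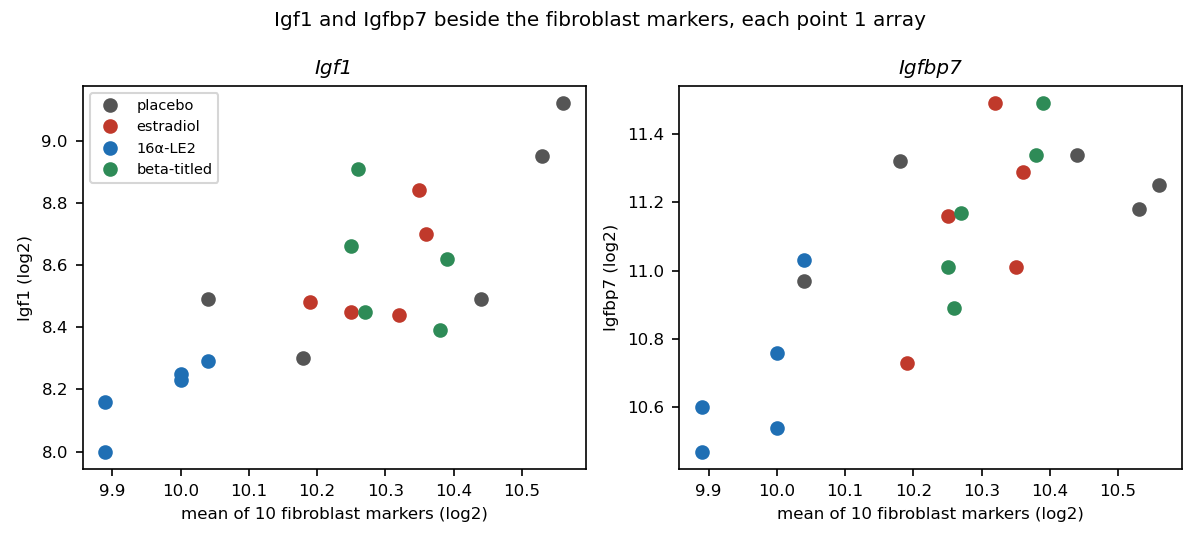
Igf1 (left) and Igfbp7 (right) against the mean of 10 fibroblast markers, both in log2 units; each point is 1 array, coloured by group. The 16α-LE2 arrays have the lowest fibroblast means (9.89 to 10.04, with 1 placebo array also at 10.04), and for Igfbp7 2 of them (10.76 and 11.03) lie within the values of the other groups.

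Other genes of the pathway were read from lists of binding partners, proteases, growth hormone signalling, receptor signalling and imprinted growth genes. Of their 55 tested members, 0 were called by limma in any of the 6 comparisons. Against placebo, an unadjusted p below 0.05 was reached by 6 with 16α-LE2 (10.9%, against 9.01% of all tested genes), by 4 with estradiol (7.27% against 9.63%) and by 3 in the beta-titled group (5.45% against 5.70%). With 16α-LE2 there were 8 against estradiol (14.5% against 5.19%) and 8 against the beta-titled group (14.5% against 5.60%), and with estradiol against the beta-titled group there was 1 (1.82% against 3.83%). These shares describe the lists and were not tested. In receptor signalling, Irs2, an adaptor that links the insulin and IGF1 receptors to PI3K, had the smallest p, 0.40 ± 0.12 (SE) above placebo (limma adjusted p = 0.175) and 0.45 ± 0.12 above estradiol (limma adjusted p = 0.414). Of its 27 tested genes, 13 were above and 14 below placebo, with a median of −0.034 against −0.028 over all genes.

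Over all tested genes 59.7% lay below placebo with 16α-LE2, beside which the splits of the lists are to be read. Among growth hormone signalling genes, where Ghr encodes the receptor that drives Igf1 in liver, 4 of 8 tested members lay above and 4 below placebo with 16α-LE2, and Cish, a feedback inhibitor, had the smallest p (0.39, limma adjusted p = 0.574). Among binding partners, 6 of 8 lay above and 2 below, led by Itgav, an integrin subunit (−0.20, limma adjusted p = 0.656). Among IGFBP proteases and their inhibitors, 2 of 6 lay above and 4 below, led by Htra1, a secreted serine protease (−0.24, limma adjusted p = 0.613). Pappa, the IGFBP4 protease, lay below the expression filter. Among imprinted growth and Igf2 mRNA-binding genes, 4 of 6 lay above and 2 below, led by Mest, an imprinted gene, at −0.20 ± 0.07 (SE; limma adjusted p = 0.325).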

How the data were processed

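Total RNA (100 ng a sample) from 20 ventricle samples was labelled and hybridised to Affymetrix mouse arrays, per the labels' protocols. The deposited table has a log2 value per array for 45101 probe sets. The authors' software, log base and normalization were not given in the sources read here, so the log2 unit was taken from the range of values. Levels near the low end may be background.

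Controls (64 probe sets) were dropped, and 34945 others had 1 gene symbol in the platform annotation, 932 several and 9160 none. A gene took its probe set of highest mean over all arrays and was tested if that mean exceeded 6.93, the median over probe sets. Groups came from sample titles. One limma model (version 3.58.1, R 4.3.3) held the means of all 4 groups with an intensity trend, and p-values were adjusted over 12082 genes. It was tested on simulated data for 16α-LE2 against placebo, with 200 of 12082 genes changed independently of each other. In 10 such runs, 73% of the genes changed by 0.5 log2 units were called, and 3.77% of all calls were wrong. Both shares hold for the simulated spread and for 200 changed genes. In the data, 27 genes were called for 16α-LE2 against placebo. The 73% is therefore not the chance that a change of this size in an IGF axis gene would be called here, which was not tested.

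Samples share title numbers across groups. Deviations of 17 same-numbered pairs had a median correlation of −0.02 (−0.35 to 0.51), so the numbers were not taken as pairs. The members and gene lists were chosen with earlier results of these data known. The rule named the 8 genes, the called members of a list or else that of smallest p, and the 3 genes most alike to a member, of which examples are printed. Other genes of the lists and single left-out samples were picked after their values were seen. Start regions of all 8 genes came from RefSeq. Alternatives covered the filter, probe set choice, scaling, array weights, the samples fitted, the replicate block and each sample left out. Figures were drawn with matplotlib 3.10.9.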

Additional observations from a re-analysis of the deposited data

Results flagged for a closer look

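Igfbp4 in 16α-LE2 sample 34 was 8.96, against 9.79 to 10.05 in the other 4 samples of that group. Its gap to the nearest sample was 0.761 of the group's whole range, above Dixon's limit for 5 samples. Of 32 groups of samples looked at (8 genes in 4 groups) this was the 1 that passed, and chance alone gives about 1 in 20.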

How the results depend on the processing

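Each difference was recomputed under 30 alternatives, 20 of which left out 1 sample each. For 16α-LE2 against placebo, Igf1 (−0.58 to −0.34), Igfbp3 (0.41 to 0.56) and Igfbp7 (−0.62 to −0.24) kept their direction in all of them. Of the 8 genes, 3 were called with array weights for 16α-LE2 against placebo, 1 against estradiol and 1 against the beta-titled group, and 0 under the other alternatives. No detection values were used, so signal over background is not known.

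For 16α-LE2 against placebo, where 27 genes were called, the count was 16 with averaged probe sets, 357 with array weights, 62 at an adjusted p below 0.1, and 8 to 74 when 1 sample was left out (lowest without placebo sample 31, highest without estradiol sample 33). Against estradiol, where 2 were called, it was 4 with no filter, 4 with a mean above 8, 0 with averaged probe sets, 0 with every probe set on its own, 20 with weights, 6 at 0.1, and 0 to 11 with 1 sample left out (0 without 16α-LE2 sample 30, highest without 16α-LE2 sample 29). Against the beta-titled group, where 21 were called, it was 32 after quantile normalization, 13 with centred arrays, 122 with weights, 46 with the 2 groups alone, 34 at 0.1, and 7 to 37 with 1 sample left out (lowest without 16α-LE2 sample 30, highest without estradiol sample 33). Estradiol had 0 to 1 calls against placebo (1 without 16α-LE2 sample 29) and 0 to 1 against the beta-titled group (1 without beta-titled sample 35). The causes were not tested.

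The replicate block, with the title's number as a random block (consensus correlation −0.08), gave 23, 2 and 17 calls in these 3 comparisons and called 0 of the 8 genes, with Igf1 at −0.47, Igfbp7 at −0.53 and Igfbp3 at 0.48 for 16α-LE2 against placebo. Of 17 same-numbered pairs, 6 correlated above 0.1.

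None of the differences of these genes had passed the threshold, and some of them turned sign. With array weights, the sign turned for Igfbp6 −0.065 in 16α-LE2 minus estradiol, Igfbp5 −0.0011 in the beta-titled group minus placebo, Igf1 0.021, Igf2 0.079, Igfbp7 0.065 in estradiol minus the beta-titled group and Igf1r −0.017, Igfbp6 0.050, Igfbp7 0.032 in estradiol minus placebo. With arrays centred on their medians, the sign turned for Igf1r −0.018 in estradiol minus placebo. With averaged probe sets, the sign turned for Igf1r 0.042 in 16α-LE2 minus estradiol, Igf1r 0.048 in 16α-LE2 minus placebo, Igf2 0.031, Igfbp7 0.0034 in the beta-titled group minus placebo, Igf1 0.022, Igfbp5 −0.055 in estradiol minus the beta-titled group and Igf2 0.015 in estradiol minus placebo. After quantile normalization, the sign turned for Igf2 0.020 in 16α-LE2 minus estradiol, Igf1r 0.045, Igfbp4 0.044, Igfbp6 0.055 in 16α-LE2 minus placebo, Igf1 0.024, Igf2 0.021, Igfbp7 0.15 in the beta-titled group minus placebo, Igfbp3 −0.0032 in estradiol minus the beta-titled group and Igfbp7 0.064 in estradiol minus placebo. With 1 sample left out, some differences spanned 0. In 16α-LE2 minus the beta-titled group these ranges were Igf2 −0.12 to 0.013. In 16α-LE2 minus estradiol these ranges were Igf1r −0.068 to 0.0095, Igf2 −0.10 to 0.064, Igfbp6 −0.057 to 0.16. In 16α-LE2 minus placebo these ranges were Igf1r −0.051 to 0.042, Igfbp4 −0.18 to 0.13, Igfbp6 −0.086 to 0.031. In the beta-titled group minus placebo these ranges were Igf1 −0.16 to 0.047, Igf2 −0.095 to 0.034, Igfbp5 −0.015 to 0.16, Igfbp7 −0.11 to 0.042. In estradiol minus the beta-titled group these ranges were Igf1 −0.087 to 0.052, Igf2 −0.11 to 0.056, Igfbp3 −0.058 to 0.15, Igfbp5 −0.0029 to 0.17, Igfbp6 −0.021 to 0.21, Igfbp7 −0.13 to 0.058. In estradiol minus placebo these ranges were Igf1 −0.18 to 0.025, Igf1r −0.019 to 0.073, Igf2 −0.16 to 0.010, Igfbp6 −0.18 to 0.031, Igfbp7 −0.16 to 0.028. The causes were not tested.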

Other observations

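Some members followed markers of a cell type from sample to sample within groups, over 20 arrays that share RNA and labelling effects and among 72 relations computed, which are given as description. Igfbp6 followed the 10 macrophage markers (r = 0.67, rho = 0.82, and r = 0.73 without the 2 arrays farthest from the median of Igfbp6). Igfbp7 followed the 5 atrial markers (r = 0.65, rho = 0.61, and r = 0.57 without such arrays), and Igfbp5 the 9 smooth muscle and pericyte markers (r = 0.64, rho = 0.52, and r = 0.47). Igf2 followed the 10 endothelial markers (r = 0.63, rho = 0.45, and r = 0.57). Without estradiol sample 33 these r were 0.70, 0.66, 0.70 and 0.58. Among the members themselves, Igf1r and Igfbp5 formed a pair outside the Igf2, Igfbp4 and Igfbp7 group (r = 0.62, rho = 0.64, and r = 0.76 without the 2 arrays farthest from the median of Igf1r). This describes the probe sets used. Other probe sets followed them with r of 0.28 to 0.57 for Igf1r and 0.07 for Igfbp5.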
